A study of Mus musculus with 6 samples.

Results

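Regions of open chromatin that lie far from any annotated transcription start site (TSS) were examined in nuclei of the newborn mouse heart. The peak lists of 6 Omni-ATAC-Seq libraries were merged into 169872 regions, of which 118175 had a peak in at least 2 libraries. Among these, 5792 regions (4.90%) had their midpoint over 100 kb from the TSS of every gene in GENCODE M21 on mm10. The members were chosen by the presence of a peak in at least 2 libraries and by distance from a TSS, so their number and distances are a description and not a result. Their median distance was 137 kb and the longest was 864 kb, with 1060 members over 200 kb away. The members just inside the limit lay 100.002, 100.005 and 100.023 kb from the TSS of Pxdn, n-R5s58 and Kat6b, and had peaks in 5, 3 and 2 libraries. The regions just outside it lay 99.992, 99.985 and 99.983 kb from the TSS of Tmem163, Gm25329 and Gm26866, and had peaks in 3, 2 and 5 libraries.

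Such regions are often called gene desert peaks, but the annotation did not bear out that name for most of them. Introns of protein-coding genes held 3553 members (61.3%), and 2042 (35.3%) were intergenic. Another 118 (2.04%) had their summit in an exon, and 79 (1.36%) in an intron of another kind of gene. Distance was counted from 1 start per gene, and 2545 members (43.9%) had the start of some annotated transcript within 100 kb. In 247 members (4.26%) a RefSeq or GENCODE transcript started within 1 kb. They are therefore called TSS-distant regions below. The nearest TSS belonged to a protein-coding gene for 1836 members (31.7%), to a processed pseudogene for 1226 (21.2%) and to a lincRNA for 788 (13.6%).

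A transposase cuts open chromatin more readily than chromatin wrapped in nucleosomes, and open sites away from promoters include enhancers, silencers and sites bound by CTCF, a protein that holds chromatin loops in place. Enhancers can act on promoters over long stretches of sequence and may sit in the introns of unrelated genes, so the gene with the nearest TSS need not be the gene they act on. In the heart, enhancers are bound by cardiac transcription factors such as GATA4, NKX2-5, TBX5 and the MEF2 proteins, and by the broadly expressed TEAD, AP-1 and MEIS factors.

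All nuclei came from whole hearts at postnatal day 1 and passed a 2.2 M sucrose cushion, and each library was made from 50000 nuclei, with 2 independent biological replicates per group. Input nuclei were from WT hearts and had no further step. Myc nuclei were from Nkx2-5 Cre/+; R26RSun1-Myc-Egfp/+ hearts and were pulled down with a Myc antibody by magnet-assisted nuclear immunoprecipitation (MAN-IP), and PCM1 nuclei were from WT hearts and were pulled down with an antibody to PCM1, a protein at the cardiomyocyte nuclear envelope. The Nkx2-5 Cre lineage also holds smooth muscle and endothelial cells, and the Myc group differs from the others in genotype as well as antibody, so these cannot be told apart. In the paper's scheme, the input was an aliquot of the nuclei from the cushion, and the other nuclei were pulled down. Libraries of different groups may therefore come from the same preparation, and the paper states independence for the replicates of a group only. The libraries hold between 75336 and 131500 peaks. Read totals are not part of a peak list. The genome-wide background solved from the peaks' fold enrichment and p-values was 3.96 and 1.02 (Input), 1.44 and 1.44 (Myc) and 0.977 and 0.903 (PCM1), so Input replicate 1 was 4.38 times as deep as PCM1 replicate 2. A region without a peak is therefore one where none was detectable at that depth. Of 12 cardiomyocyte markers, between 10 and 12 had a peak within 2 kb of the TSS in each library. The same held for 9 to 12 fibroblast, 10 to 12 endothelial and 1 to 5 immune markers.

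The sequences that follow are the 200 bp centred on the strongest summit of a member, read 5′ to 3′ on the plus strand of GRCm38 (RefSeq), with capitals at each match to a motif searched for. The first pair shows the member with the highest mean rank, chr11:62076721-62076920 in an intron of Specc1, and the strongest intergenic one, chr17:10080037-10080236, whose nearest coding TSS is that of Qk. The third is the member farthest from a TSS among those in all 6 libraries, chr16:6839725-6839924 inside Rbfox1.
Specc1 intron: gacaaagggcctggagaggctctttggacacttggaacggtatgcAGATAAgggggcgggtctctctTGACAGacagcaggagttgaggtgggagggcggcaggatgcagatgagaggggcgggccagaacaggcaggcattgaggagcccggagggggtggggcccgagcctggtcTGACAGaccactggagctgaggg
Qk intergenic: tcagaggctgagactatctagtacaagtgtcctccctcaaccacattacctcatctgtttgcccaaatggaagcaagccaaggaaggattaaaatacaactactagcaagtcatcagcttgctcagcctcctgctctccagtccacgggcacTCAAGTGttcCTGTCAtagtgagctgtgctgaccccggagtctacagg
Rbfox1 intron: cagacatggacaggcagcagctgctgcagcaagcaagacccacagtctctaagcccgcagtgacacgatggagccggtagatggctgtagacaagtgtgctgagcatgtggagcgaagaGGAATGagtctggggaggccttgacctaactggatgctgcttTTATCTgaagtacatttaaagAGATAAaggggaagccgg
The Specc1 window holds 1 GATA and 2 MEIS matches, the Qk window 1 NKX2-5 and 1 MEIS match, and the Rbfox1 window 2 GATA matches and 1 TEAD match.

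The next set shows the strongest member with a peak in both libraries of a single group and in no other library. They are chr7:115304560-115304759 for Input (nearest coding TSS Insc), chr6:47314596-47314795 for Myc (Cul1) and chr4:151527839-151528038 for PCM1 (an intron of Camta1). The Myc window holds a CTCF match, the PCM1 window an NKX2-5 match and the Input window none.
Input alone: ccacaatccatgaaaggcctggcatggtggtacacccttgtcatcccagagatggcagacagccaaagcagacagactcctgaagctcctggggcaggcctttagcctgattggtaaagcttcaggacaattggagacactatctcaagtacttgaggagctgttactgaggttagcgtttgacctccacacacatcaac
Myc alone: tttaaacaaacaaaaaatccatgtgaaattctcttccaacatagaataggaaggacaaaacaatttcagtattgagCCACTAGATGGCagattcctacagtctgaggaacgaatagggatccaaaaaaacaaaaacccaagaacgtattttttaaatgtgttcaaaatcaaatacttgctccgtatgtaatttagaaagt
PCM1 alone: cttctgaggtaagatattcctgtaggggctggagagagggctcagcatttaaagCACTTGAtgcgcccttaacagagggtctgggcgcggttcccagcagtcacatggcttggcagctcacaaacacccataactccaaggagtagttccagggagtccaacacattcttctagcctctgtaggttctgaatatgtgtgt
The last window is that of the strongest member with a CTCF match, chr6:51857920-51858119 in an exon of Skap2.
CTCF in Skap2: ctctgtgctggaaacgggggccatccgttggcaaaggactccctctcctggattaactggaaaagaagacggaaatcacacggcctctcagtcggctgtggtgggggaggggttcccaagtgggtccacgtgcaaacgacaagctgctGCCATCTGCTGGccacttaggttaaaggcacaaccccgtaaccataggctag

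TSS-distant regions were sparse for the sequence they occupy. Sequence over 100 kb from a TSS made up 301.0 Mb (11.4% of the genome outside assembly gaps) and held 19.2 regions per Mb, against 47.9 per Mb in the rest. The density was 171 regions per Mb within 1 kb of a TSS, 46.7 at 10 to 25 kb, 22.2 at 100 to 150 kb, 15.9 at 200 to 300 kb and 9.78 beyond 300 kb. In the plot of density by distance it was lower at each step beyond 25 kb. This also held when, of these regions, only those with a peak in a given library were counted. The libraries thus share the regions counted, and peaks found in 1 library only are left out. At 100 to 150 kb such regions per Mb were 20.3 and 11.5 (Input), 17.4 and 17.5 (Myc) and 12.1 and 12.05 (PCM1). Beyond 300 kb they were 8.73 and 4.63, 7.73 and 7.73, and 4.67 and 4.93. No test was made of these densities.

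**Figure D1:**
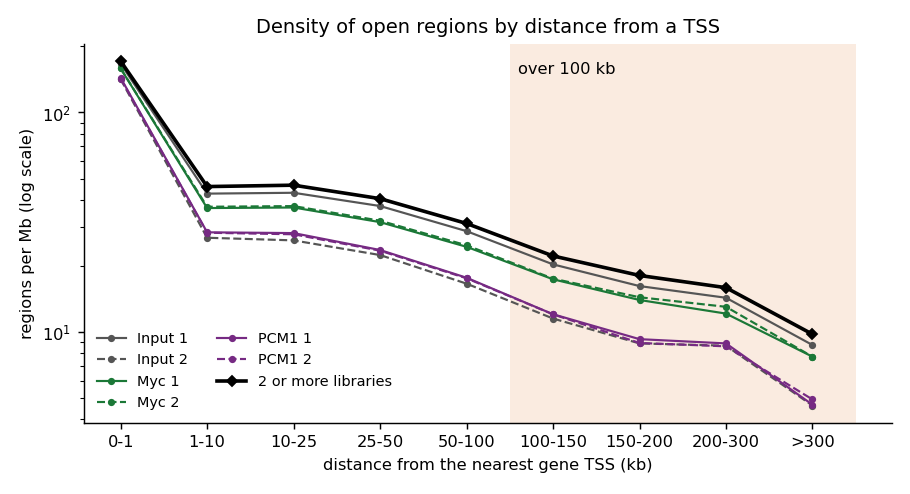
Regions per Mb of sequence outside gaps (log axis) against distance from the nearest gene TSS in kb, for regions in 2 or more libraries. Coloured lines count those with a peak in each library (colours by group, dashed for replicate 2), and the black line counts all of them. Within the shaded range over 100 kb, the black line goes from 22.2 to 9.78 regions per Mb.

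Within that distant sequence, introns were richer than intergenic sequence. Introns of protein-coding genes held 33.2 members per Mb over 106.9 Mb, and intergenic sequence 10.9 per Mb over 186.7 Mb. Members in introns had a median mean rank of 23.1 and intergenic ones of 21.1. The rank here is a percentile within a library by −log10 q, where 100 is the strongest peak and 0 means no peak, averaged over the 6 libraries. Chromosomes ranged from 4.79 members per Mb on X to 31.3 on chromosome 7, with none on Y. As a share of the regions on their chromosome, members were alike on X (3.94%) and chromosome 7 (3.91%), against 4.90% of all regions.

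The members were unevenly spread over the stretches of distant sequence. Of 2343 such stretches, 1201 (51.3%) held a member and 155 held 10 or more. The stretch with the most, 52 members of which 22 were in all 6 libraries, was chr12:79397301-79836300 in and beside Rad51b, a gene of recombination repair. It was followed by stretches with 49 members each at Sox6, Rora and Pde4b, and by 48 at Rbfox1. A stretch at Kalrn, chr16:34107501-34473500, held 40 members and had 25 in all 6 libraries, the most of any stretch. At the other end, 132 of the 453 stretches of 200 kb or more held no member, the longest being chr1:145426701-146320400 near Brinp3.

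Input replicate 1 had a peak at 90.8% of the members and Input replicate 2 at 51.5%. The Myc replicates had a peak at 77.8 and 79.4%, and the PCM1 replicates at 53.6 and 53.0%. The order of the libraries was that of their number of peaks, and the Input replicates stood farther apart than those of the other groups, so the shares were taken again from equal lists, each cut to its 75336 strongest peaks. They then ranged from 67.1% in PCM1 replicate 1 to 76.8% in Input replicate 1. A peak in all 6 libraries was found at 1733 members (29.9%, exact binomial 95% interval 28.7 to 31.1%), where percent_called over all regions in 2 or more libraries was 41.3%. The interval covers counting error only and takes the regions as independent, although all were read in the same libraries. The share in all 6 libraries was 34.9% for distal regions, which lie over 10 and up to 100 kb from a TSS, and 73.6% for regions within 1 kb. Where peaks had to cover 50% of the merged region to count, 19.8% of the members were in all 6. Members within 1 kb of some RefSeq or GENCODE transcript start were in all 6 libraries in 47.8% of cases (247 members), and the other 5545 in 29.1%.

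Members were compared with the 63010 distal regions, which met the same rule on libraries, in 7 measures within each library. The first, the percent with a peak, differed by −2.93 ± 2.28 percentage points (SD, n = 6 libraries) between members and distal regions, and was lower in members in each library. Presence of a peak chose both classes, so this difference is given as a description and no p-value is read from it. It is still 1 of the 7 measures over which the p-values below were adjusted. The median rank percentile of the members' peaks was 49.0 and 40.9 (Input), 43.5 and 44.3 (Myc) and 43.7 and 43.8 (PCM1), against 52.7, 44.9, 48.8, 49.1, 47.8 and 47.3 for distal regions. Members were thus lower in each of the 6 libraries, with a difference of −4.22 ± 0.673 (SD, n = 6; exact two-sided sign-flip permutation test, p = 0.03125, adjusted p = 0.0365 over the 7 measures). This p is the smallest that 6 libraries allow, and the libraries read the same sites, so it covers the spread between libraries only. When peaks were ranked by fold enrichment the difference was −0.693 points (exact permutation test, p = 0.25, adjusted p = 0.292). Likewise the median fold enrichment itself, 6.33 ± 0.199 for members and 6.39 ± 0.267 for distal regions (SD, n = 6), was not distinguishable (mean difference −0.0603, lower in 3 libraries, higher in 1 and equal in 2; exact permutation test, p = 0.375, adjusted p = 0.375). Peaks of members were shorter, with a difference of −10.4 ± 2.97 bp (SD, n = 6, shorter in 6 of 6; exact permutation test, p = 0.03125, adjusted p = 0.0365), with means of 334 and 344 bp. Members over 200 kb from a TSS were also set against regions over 10 and up to 200 kb away. The differences in rank, GC, CTCF and MEF2 kept their direction. Each still had the smallest p that 6 libraries allow and missed the threshold only once adjusted (exact permutation test, p = 0.03125, adjusted p = 0.0547). That adjustment takes in the percent with a peak. The difference in length missed it before adjustment too (exact permutation test, p = 0.09375, adjusted p = 0.109).

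**Figure D2:**
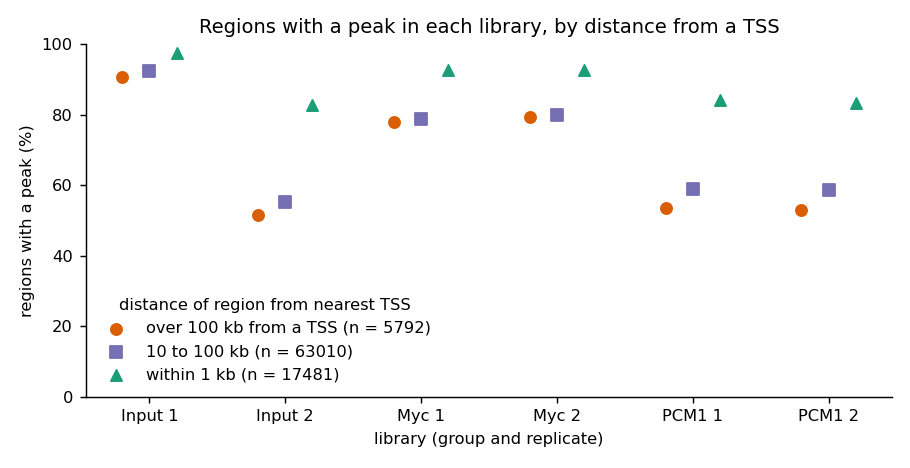
Percent of regions with a peak in each library for TSS-distant regions (circles), distal regions 10 to 100 kb from a TSS (squares) and regions within 1 kb (triangles). The circles lie below the squares in all 6 libraries and the triangles above both.

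The base composition and motif content of the summits also differed with distance. The 200 bp around the members' summits had 48.9 ± 0.736% GC and those of distal regions 50.8 ± 0.753% (SD, n = 6 libraries), a mean difference of −1.92 points and lower in 6 of 6 libraries (exact permutation test, p = 0.03125, adjusted p = 0.0365). The sequence 2 kb away from the summits was lower too, with a median GC of 42.5% beside members and 45.0% beside distal regions. A CTCF consensus match was found in 2.24 and 2.21% (Input), 2.86 and 2.78% (Myc) and 1.71 and 1.82% (PCM1) of the members' windows. The corresponding values for distal regions were 4.18, 4.55, 5.05, 5.01, 3.53 and 3.596%. CTCF matches were thus scarcer in members in 6 of 6 libraries, with a difference of −2.05 ± 0.236 points (SD; exact permutation test, p = 0.03125, adjusted p = 0.0365). In windows 2 kb from the strongest summits they were scarcer beside members too, at 0.0691% against 0.157% beside distal regions. Summits held a match 34.25 and 27 times as often as these windows, ratios that rest on few matches beside the summits.

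The MEF2 consensus, an AT-rich site bound by MEF2A, MEF2C and MEF2D, was instead more frequent at the summits of members. It was in 7.68 and 8.52% (Input), 8.01 and 8.09% (Myc) and 7.99 and 8.34% (PCM1) of the members' windows, and in 5.91 to 6.58% of the distal windows. Members were higher in 6 of 6 libraries, by 1.76 ± 0.133 points (SD, n = 6; exact permutation test, p = 0.03125, adjusted p = 0.0365). The same consensus was also more frequent beside members than beside distal regions in windows 2 kb from the summit, at 4.70 and 3.49%, so that summits held it 1.59 and 1.69 times as often as the windows beside them. The part of base composition in the MEF2 difference was not tested.

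Counted once per region, at its strongest summit, 137 members (2.37%) had a CTCF and 432 (7.46%) a MEF2 match. The shares over all regions in 2 or more libraries were 4.05 and 5.11%. By distance they were 4.85 and 5.55% at 10 to 25 kb and 3.52 and 6.59% at 50 to 100 kb. At 100 to 150 kb they were 2.49 and 6.74%, and beyond 300 kb 2.23 and 6.70%. Both shares thus shifted with distance short of the 100 kb limit as well. Short cardiac motifs were searched on both strands with no allowance for their overlap with one another. The GATA factor motif, spelled AGATAA, was in 15.3% of the members, 13.5% of distal regions and 11.8% of all regions, NKX2-5 (TNAAGTG) in 13.8, 11.8 and 10.5%, and TBX5 (AGGTGT) in 8.34, 8.44 and 8.22%. TEAD (GGAATG) was in 17.6, 16.5 and 15.2%, AP-1 (TGANTCA) in 9.72, 9.71 and 8.72%, and MEIS (TGACAG) in 23.7, 21.98 and 20.1%. TBX5 and AP-1 were thus in nearly the same share of members and distal regions. These shares were not tested. In the windows 2 kb beside the members these shares were 13.5% for GATA, 11.4% for NKX2-5, 10.4% for TBX5, 10.7% for TEAD, 6.42% for AP-1 and 13.7% for MEIS. MEIS and TEAD thus stood farthest above the windows beside them among the short motifs, at 1.73 and 1.65 times, and TBX5 was below, at 0.798 times.

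**Figure D3:**
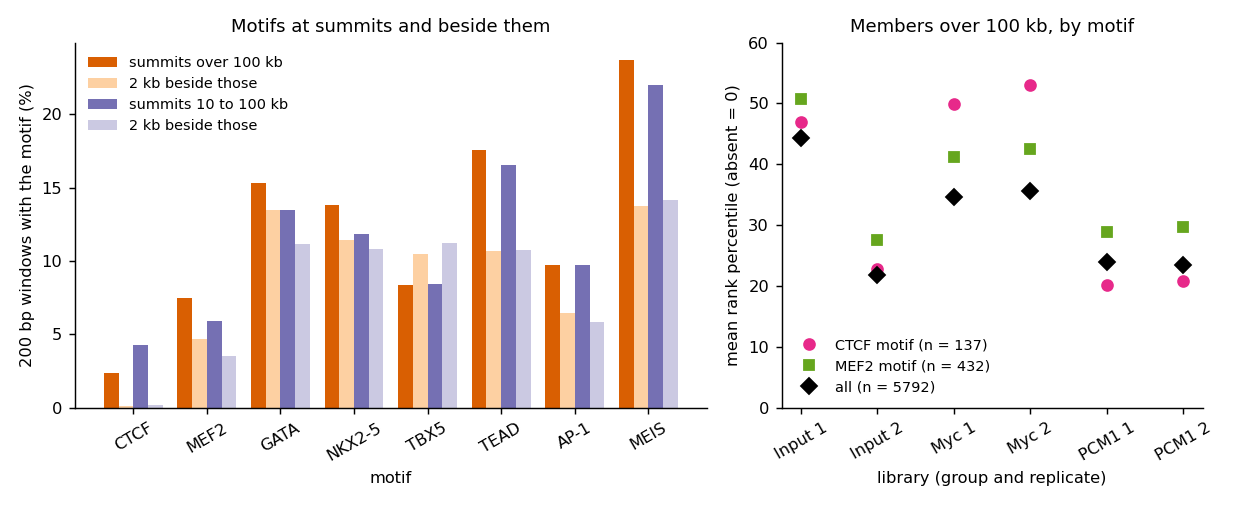
Left, percent of 200 bp windows with each motif at the summits of TSS-distant and distal regions (dark bars) and 2 kb beside them (light bars). Right, mean rank percentile in each library of the members with a CTCF match, with a MEF2 match and of all members. The CTCF points lie at 49.9 and 53.1 in Myc and at 20.2 and 20.9 in PCM1.

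The groups were compared by rank and by presence, without a test. With 2 libraries set against 4, the smallest one-sided exact permutation p is 0.0667, and no model was fitted across regions. Both Myc libraries ranked 806 members (13.9%) above all 4 other libraries, where percent_called over all regions was 15.5%. Both Input libraries ranked 431 members (7.44%) above the other 4 (percent_called 6.83%), and both PCM1 libraries 125 (2.16%, percent_called 2.53%). Ranked below the other 4 were 43 members in Input (0.742%, percent_called 0.878%), 183 in Myc (3.16%, percent_called 4.07%) and 674 in PCM1 (11.6%, percent_called 14.3%). With equal numbers of peaks, where 3863 members remained in 2 or more libraries, the members ranked higher numbered 372 (Input, 9.63%, and 8.37% of all regions), 505 (Myc, 13.1 and 16.9%) and 462 (PCM1, 11.96 and 13.8%). Ranked lower were then 141 (Input, 3.65 and 4.78%), 432 (Myc, 11.2 and 12.3%) and 332 (PCM1, 8.59 and 11.99%).

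A peak in both libraries of a group and in no other library was found at 219 members in Myc (3.78%, percent_called 2.65%), 106 in Input (1.83%, percent_called 1.55%) and 23 in PCM1 (0.397%, percent_called 0.365%). With equal numbers of peaks, 3863 members remained. These counts were then 133 (Myc, 3.44%, and 2.63% of all regions), 66 (Input, 1.71 and 1.35%) and 81 (PCM1, 2.097 and 1.81%). Conversely, 227 members (3.92%, percent_called 3.25%) had a peak in the other 4 libraries and none in PCM1, 19 (0.328%, percent_called 0.386%) had none in Myc and 11 (0.190%, percent_called 0.149%) had none in Input. Intergenic members had a peak in 80.1 and 81.8% of cases in the Myc replicates and in 49.1 and 48.0% in PCM1, while intronic members had 76.3 and 78.2% (Myc) and 55.7 and 55.4% (PCM1).

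The strongest members of a single group reached only middle ranks. Insc, which orients the mitotic spindle, had the nearest coding TSS to the first Input region, chr7:115304490-115304833, which ranked at 68.8 and 54.7 in Input. It was followed by regions in introns of Tbc1d5 (51.9 and 48.3) and Prkg1 (48.5 and 46.8), the cGMP-dependent protein kinase. The Myc regions were chr6:47314541-47315105 near Cul1, a ubiquitin ligase scaffold, at 62.1 and 56.6, a region in an intron of Rora, a nuclear receptor gene, at 53.5 and 56.5, and a region in an exon of Tns1 at 51.7 and 49.1. The first and second of the Myc regions each had a CTCF match, and no Input or PCM1 region of this set did. The PCM1 regions lay in introns of Camta1, a calmodulin-binding transcription activator, at 38.3 and 61.9, of Ntrk2, a neurotrophin receptor gene, at 36.7 and 43.8, and of Rbms3 at 29.2 and 43.2.

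Members with a CTCF match were ranked higher in Myc more than members at large. Of the 137, 52 (37.96%, exact binomial 95% interval 29.8 to 46.6%, counting error only) ranked in both Myc libraries above the other 4, against 13.9% of all members, and 28 (20.4%) ranked lowest in PCM1, against 11.6%. None of the 137 ranked higher in Input or in PCM1, and with equal numbers of peaks 1 and 4 of 107 did. Their mean rank percentile was 46.9 and 22.9 (Input), 49.9 and 53.1 (Myc) and 20.2 and 20.9 (PCM1), where all members had 44.4 and 21.9, 34.7 and 35.6, and 23.9 and 23.4. A peak was present at 92.7 and 94.9% of them in Myc, 87.6 and 50.4% in Input and 43.1 and 46.7% in PCM1. Input replicate 1, the deepest library, thus had fewer of them than either Myc library, although it had more of the members as a whole. The share was 45.8% of 107 with equal numbers of peaks and 36.7% of 150 with the match anywhere in the region, and it was 36.9% of 2673 for distal regions with a match, so it is not particular to the TSS-distant ones. Leaving out a library loosens the rule for every region: without Input replicate 1 the share was 72.4% of 127 against 39.8% of all members, and without Myc replicate 1 it was 62.2% of 119 against 25.6%. With each other library left out it was between 39.0 and 47.9%, against 14.8 to 24.4% of all members.

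Members with a MEF2 match did not part the groups in this way. Of the 432, 55 (12.7%) ranked higher in Myc, 28 (6.48%) in Input and 9 (2.08%) in PCM1, near the shares of all members. They were in all 6 libraries in 37.5% of cases, against 29.9% of all members, and had a higher mean rank than all members in each library, from 27.5 in Input replicate 2 to 50.8 in Input replicate 1. Distal regions with a MEF2 match were in all 6 in 44.1% of cases, against 34.9% of distal regions. Their mean rank was also higher in each library, so neither trait is particular to the TSS-distant regions. Among the other motifs, MEIS was in 28.8% of the 431 members ranked higher in Input, 19.1% of the 806 in Myc and 17.6% of the 125 in PCM1. All members had 23.7%. NKX2-5 was in 19.3, 11.5 and 13.6% of the same sets (all members 13.8%) and TEAD in 18.1, 19.1 and 24.8% (17.6%). GATA was in 17.9, 15.1 and 13.6% (15.3%), TBX5 in 9.98, 7.82 and 11.2% (8.34%) and AP-1 in 8.82, 11.2 and 6.40% (9.72%). These shares were not tested, and the PCM1 set of 125 became 462 with equal numbers of peaks.

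The strongest members were near the top of every library. The highest, chr11:62076563-62077432 in Specc1, a gene of the cytoskeleton, had ranks of 99.8 and 99.5 (Input), 96.3 and 99.0 (Myc) and 99.5 and 99.4 (PCM1), with a fold enrichment from 17.6 to 25.3. A RefSeq transcript of Specc1 starts 0.005 kb from its midpoint. The second, chr8:36613324-36614272, was in Dlc1, 0.145 kb from a RefSeq start of that gene, and ranked at 99.4 and 99.4, 98.2 and 98.1, and 98.4 and 98.5. These regions, called distant because a gene counts with 1 start only, thus sit at other annotated starts. The sixth (nearest coding TSS Eef2kmt) and the eighth (Sipa1l2) lay within 0.032 kb of the start of a RefSeq noncoding gene.

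Others of the 10 strongest had no RefSeq start within 1 kb. The third, chr17:10079749-10080436, was intergenic, 239.8 kb from the TSS of Qk, an RNA-binding protein, and ranked at 99.5 and 99.0 (Input), 96.3 and 96.0 (Myc) and 99.0 and 99.0 (PCM1). The fourth, chr8:128112895-128113807, lay 245.3 kb from the TSS of Nrp1, a coreceptor for VEGF and semaphorins, and ranked between 96.9 and 99.1. The ninth was in an intron of Fhod3, a formin of the cardiac sarcomere, and ranked at 93.2 and 94.8 in Myc and between 96.9 and 98.6 in the other 4 libraries. The fifth was 201.2 kb from the TSS of Sipa1l2, the seventh was inside Rbfox1 and the tenth inside Pde1c, a phosphodiesterase gene. In the plot of single members, both Myc values lay below the other 4 for the regions in Specc1, Dlc1 and Fhod3. The same held for the Qk and Eef2kmt regions and the eighth one. It held for 3.16% of all members and 4.07% of all regions in 2 or more libraries.

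**Figure D4:**
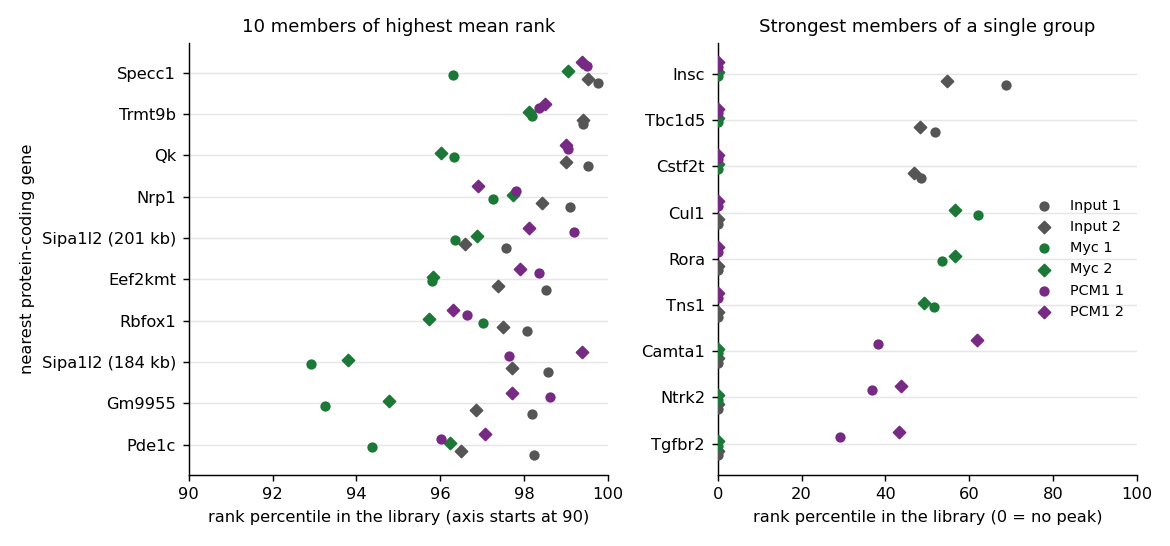
Rank percentile in each library (circles replicate 1, diamonds replicate 2, colours by group) of the 10 members with the highest mean rank (left, axis from 90 to 100) and of the strongest members with a peak in both libraries of a single group (right, 0 where there was no peak). Regions are named by the nearest coding TSS. The Specc1 region ranked at 96.3 or above in each library.

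The farthest members in all 6 libraries lay in Rbfox1, a splicing regulator of neurons and muscle in a stretch of 1533.5 kb that lies over 100 kb from any gene TSS. The farthest, chr16:6839565-6840267, was 864.3 kb from a gene TSS and 172.2 kb from a RefSeq transcript start. It ranked at 89.6 and 80.5 (Input), 83.4 and 78.6 (Myc) and 82.96 and 73.2 (PCM1). The next lay 819.6, 816.3, 740.8 and 722.8 kb away, with mean ranks of 65.6, 67.9, 57.1 and 94.5. From the nearest RefSeq transcript start, in each case one of Rbfox1, they lay 122.7, 220.2, 295.7 and 25.9 kb away. The last of them, chr16:6985981-6986526, is thus far from a TSS only when a gene counts with 1 start. It ranked between 92.3 and 96.7 in the 6 libraries.

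The members were nearest to 1220 protein-coding genes, and 157 of these, with 10 or more members each, accounted for 43.2% of the members. The most were near Rbfox1 (40 members, 14 in all 6 libraries), Rab3c, a GTPase of secretory vesicles (37 and 18), the transcription factor Sox6 (37 and 13) and Nrp1 (36 and 9). Then came Sgip1, an endocytic adaptor (33 and 12), Bmper, a BMP-binding protein (32 and 12), Tgfbr2, a TGF-beta receptor (31 and 11), Rad51b (30 and 13), Cdkal1, a tRNA-modifying enzyme (29 and 12), and Ntm, a neural adhesion protein (28 and 5). By members in all 6 libraries, Kalrn, a guanine nucleotide exchange factor (24 members, 15 in all 6), Sipa1l2 (23 and 13) and Ccdc6 (27 and 12) joined them. Per Mb of distant sequence, the densest of these were Sipa1l2 with 161, Sgip1 with 137 and Kalrn with 118, and Rbfox1 had 30.9.

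**Figure D5:**
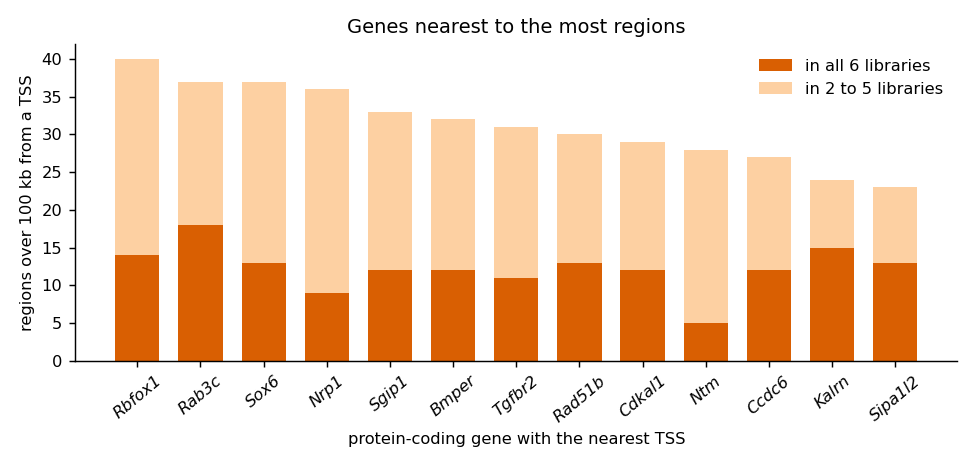
Number of TSS-distant regions for the genes whose coding TSS is nearest to the most of them, split into those with a peak in all 6 libraries and those in 2 to 5. Rbfox1 has the most regions (40) and Rab3c the most in all 6 (18).

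The gene that held a member could differ from the gene with the nearest TSS. Of the 3669 members inside one of 577 protein-coding genes, 2291 (62.4%) lay in the gene whose TSS was nearest. By host, chosen after the values were seen, the most members lay in Rad51b (49, of which 19 were in all 6 libraries), Rora (49 and 16), the phosphodiesterases Pde4d (46 and 18) and Pde4b (44 and 15), Rbfox1 (43 and 14) and Kalrn (40 and 25). Of the counts above, 3 of the 37 members assigned to Rab3c lay in it, and none of the 31 assigned to Tgfbr2 lay in Tgfbr2.

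Members lay more densely near the listed heart transcription factors, and less densely near the listed genes of neural adhesion and guidance, than over all distant sequence, with no test made. The 40 heart transcription factors had 121 members near 21 of them, 37.0 per Mb of their distant sequence against 19.2 over all of it, and 35.5% in all 6 libraries against 29.9%. Meis2 had 19 members (3 in all 6), Gata6 15 (10), the nuclear receptor Esrrg 13 (3) and Foxp1 11 (4). Irx1 had 8 (4), Mef2c 6 (3), and Irx4 and Myocd, the serum response factor coactivator, 5 each (3 and 1). Of the 121, 18 (14.9%, against 13.9% of all members) ranked higher in Myc, 6 (4.96 against 7.44%) in Input and 3 (2.48 against 2.16%) in PCM1. Lower ranks were found for 10 (8.26 against 11.6%) in PCM1, 7 (5.79 against 3.16%) in Myc and 1 (0.826 against 0.742%) in Input. The strongest region of each was high in every library for some genes and not for others. The Gata6 region, which was intergenic, ranked between 89.7 and 93.7 in the 6 libraries, and that in an intron of Esrrg between 93.6 and 96.8. The strongest near Mef2c, which has a MEF2 match, ranged from 43.7 in PCM1 replicate 1 to 80.4 in Input replicate 1.

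The 64 genes of neural adhesion and axon guidance had 188 members near 38 of them but far more distant sequence, 28.6 Mb, and so 6.57 members per Mb. Of these members 16.5% were in all 6 libraries. Ntm had 28 (5 in all 6), Opcml 19 (3), the Slit receptor Robo1 19 (2), the netrin receptor Unc5d 10 (3) and Slit2 10 (1). A peak was present at 86.7 and 42.0% (Input), 78.2 and 81.4% (Myc) and 42.0 and 34.6% (PCM1) of the 188. All members had 90.8 and 51.5%, 77.8 and 79.4%, and 53.6 and 53.0%, so the values were lower in both Input and both PCM1 libraries and slightly higher in both Myc libraries. Of the 188, 33 (17.6%, against 13.9% of all members) ranked higher in Myc, 13 (6.91 against 7.44%) in Input and 2 (1.06 against 2.16%) in PCM1. In PCM1 23 ranked lower (12.2 against 11.6%), in Myc 1 (0.532 against 3.16%) and in Input 1 (0.532 against 0.742%). The strongest region of Robo1 lay in an exon, 0.285 kb from a RefSeq start of the gene, and ranked between 72.6 and 88.2.

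Markers of single cell types had little distant sequence near them and few members, and their densities rest on small counts. The 12 endothelial markers had 27 members near 5 genes (67.8 per Mb, 40.7% in all 6 libraries), of which 11 were near Cdh5, 11 in Flt1, a VEGF receptor gene, and 3 in Erg. The strongest near Cdh5 ranked between 80.5 and 88.3 in the 6 libraries, and that in Flt1 between 55.9 and 77.7. The 12 cardiomyocyte markers had 11 members, 6 in Ryr2 and 5 in Ttn, none in all 6 libraries, at 45.0 per Mb and a median mean rank of 10.9. Fibroblast markers had 3 members (near Col3a1 and Tcf21, 45.4 per Mb), neuronal and Schwann markers 5 (20.97 per Mb) and erythroid markers 2 (20.3 per Mb). Smooth muscle and pericyte, epicardial and immune markers had none, and had 0, 0.0960 and 0.0031 Mb of distant sequence.

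Ranks over the members were more alike between libraries of 1 group than between libraries of different groups. Pearson's r of rank percentiles across the 5792 members was 0.753 for the Input pair, 0.752 for Myc and 0.770 for PCM1, and between 0.639 and 0.736 for the pairs from different groups. The lowest were the pairs of Myc with PCM1, at 0.639 to 0.645. Shared presence did not follow the groups in this way. The Input pair shared 53.7% of the members, while Input replicate 1 shared 72.7 and 74.4% with the Myc libraries and Input replicate 2 shared 55.1% with PCM1 replicate 2. Over distal regions r was higher in each of the 15 pairs, for example 0.797 for Myc. These coefficients are across regions, which are not independent replicates and share their libraries and the rule of selection, and are given as a description.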

How the data were processed

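Reads were trimmed by the authors (fastq-mcf), aligned to mm10 using Bowtie2 2.3.3.1, marked for duplicates (Picard 2.2.1), cleared of blacklisted regions and shifted for Tn5. MACS2 2.1.0.20160309 then called the peaks of each library at q 0.05, and these 6 lists were deposited. A deposited peak carries its fold enrichment over local background, a −log10 p-value, a −log10 q-value and a score, all as the authors computed them. No read counts were used.

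Peaks were merged with bedtools 2.31.1 (any overlap) and assigned to the nearest TSS of GENCODE M21 genes, 1 start per gene. The other steps used Python 3.11.15 (numpy 2.4.6, pandas 2.3.3, scipy 1.17.1, matplotlib 3.10.9). Presence means any peak in the region, and the rank percentile is by −log10 q within a library. Motifs and GC were read in 200 bp windows around summits, from the RefSeq GRCm38 genome, whose chromosome lengths are those of mm10. CTCF and MEF2 were searched as consensus sequences, so weaker sites are not counted. Depth was solved from fold and p-value of the weakest peaks of each library, and 1 library differs from another by up to 4.38 times. Binomial intervals (95%) cover counting error only.

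TSS-distant and distal regions were compared by two-sided exact permutation tests with sign flips over 6 libraries, with Benjamini-Hochberg adjustment over 7 measures. Groups were described without a test. The code was tested on simulated data. Regions named are the 10 strongest members, the 5 farthest in all 6 libraries, the 3 strongest of each single group and the 3 on either side of the limit. Genes named are those nearest to them or to the most members, listed heart transcription factors with at least 5 members (1 is not reported here) and the 5 listed adhesion genes with the most. The strongest region of a listed gene and the host genes were added after the values were seen. The members and lists were chosen with earlier results of these data known. Alternatives were a q-value of 0.01, equal numbers of peaks, at least 3 libraries, limits of 50 and 200 kb, other TSS sets, 50% cover, ranks by fold, 400 bp windows, distal regions from 50 kb and each library left out. With limits of 50 and 200 kb, distal regions were those over 10 kb and up to that limit.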

Additional observations from a re-analysis of the deposited data

How the results depend on the processing

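The number of TSS-distant regions followed the definition: it was 18393 over 50 kb, 1060 over 200 kb, 26489 with starts of protein-coding genes only and 3247 with every transcript start, and 4830 to 5629 with each library left out. The percent in all libraries was 37.4 with equal numbers of peaks, 39.4 with at least 3 libraries, 31.7 over 50 kb, 31.2 with coding starts, 27.9 with every transcript start, 19.8 where peaks had to cover 50% of a region, 28.1 for intergenic regions and 34.2 to 35.8 with each library left out, when 5 libraries remain. Density was 16.0 to 18.7 per Mb with each library left out.

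The fold enrichment difference from distal regions turned positive with equal numbers of peaks (0.0802), over 200 kb (0.0637) and with every transcript start (0.0402), and for intergenic regions it was −0.192 and passed (exact permutation test, adjusted p = 0.0365). The difference in percent with a peak, a description, was −2.28 with at least 3 libraries, −2.38 over 200 kb, −3.43 with every transcript start and −3.78 for intergenic regions. That in rank by fold (−0.693) no longer passed. Over 200 kb the rank (−3.74), length (−8.33 bp), GC (−2.50), CTCF (−1.36) and MEF2 (1.74) differences kept their direction. All missed the threshold after adjustment, and length missed it before adjustment too. With each library left out, where 5 libraries allow no p below 0.0625, the 7 differences ranged from −3.12 to −2.40 (percent with a peak), −4.53 to −4.10 (rank), −0.124 to −0.0141 (fold), −11.4 to −9.60 bp (length), −2 to −1.90 (GC), −2.13 to −1.99 (CTCF) and 1.72 to 1.88 (MEF2). A q-value of 0.01, 400 bp windows, distal regions from 50 kb and leaving out regions within 1 kb of a transcript start changed no direction and no call of the differences, among which the 400 bp windows bear on GC, CTCF and MEF2 only. Against distal regions from 50 to 100 kb the differences were smaller, at −2.46 (rank), −6.58 bp (length), −1 (GC), −1.17 (CTCF) and 0.993 (MEF2). The cause of the changes above was not tested.

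With equal numbers of peaks, the mean percent of members with a peak was 74.7 in Myc and 68.0 in PCM1. Of the 3863 members left, those of a single group numbered 66 (Input, 1.71%, and 1.35% of all regions), 133 (Myc, 3.44 and 2.63%) and 81 (PCM1, 2.097 and 1.81%). Members then ranked higher numbered 505 (Myc, 13.1 and 16.9%) and 462 (PCM1, 11.96 and 13.8%). Members then ranked lower numbered 141 (Input, 3.65 and 4.78%), 432 (Myc, 11.2 and 12.3%) and 332 (PCM1, 8.59 and 11.99%). With each library left out, the percent with a peak was 59.6 to 91.6 in Input, 80.5 to 87.7 in Myc and 54.6 to 61.6 in PCM1, and the share of members with a CTCF match ranked higher in Myc 39.0 to 72.4, the highest without Input replicate 1, where the share of all members was 39.8. The settings for intergenic regions, for transcript starts and for the CTCF share were chosen after seeing the data. No paired analysis was possible because the paper does not state which libraries of different groups share a preparation of nuclei. The replicate numbers, which recur in each group, were not taken as pairs. The group values come from no test, and the test of distance already pairs both classes within a library. Depth limits which weak sites are seen, and only 2 libraries per group were analysed here.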
